A study of Mus musculus with 16 samples.

Results

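The genes described here are 9 genes of mature oligodendrocytes and their myelin, Mbp, Mog, Mag, Mobp, Cnp, Cldn11, Opalin, Mal and Ermn, chosen by symbol out of 20436 genes listed in the expression tables. They were measured in the cerebral cortex of mice aged 28 to 35 postnatal days by cytoplasmic RNA-seq and by ribosome profiling, which sequences the fragments of mRNA that ribosomes protect (footprints). The study compared 4 genotypes: WT (wild type), a knockout of Fmr1, whose product FMRP is an RNA-binding protein lost in fragile X syndrome, a knockout of Cpeb1, which encodes a binding protein of cytoplasmic polyadenylation elements, and a double knockout of both genes. All animals had the strain background labelled FVB.129P2-/Pde6b+ Tyrc-ch //AntJ, and all cortices were homogenized in a buffer with cycloheximide and harringtonine, with the RNA of both assays taken from the supernatant of one low-speed spin. Each genotype had 2 libraries of each assay, 16 in all. The labels do not say whether the 2 libraries came from separate animals, so p-values measure only the spread between these libraries, which may be technical. In bulk cortex, fewer oligodendrocytes and less RNA per oligodendrocyte cannot be told apart.

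Oligodendrocytes wrap axons of the central nervous system in myelin, a stack of membrane that is held together by a small set of abundant proteins and is rich in cholesterol and galactolipids. In the mouse cortex myelination is under way during the postnatal weeks and goes on into adulthood, and the transcription factors Olig1, Olig2, Sox10 and Myrf drive oligodendrocyte precursors to the mature, myelin-making state. Mbp mRNA is carried along oligodendrocyte processes in granules and translated at the myelin sheath, and both FMRP and its binding to Mbp mRNA have been described in cells of this lineage.

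The 9 genes cover different parts of the sheath. Mbp (NCBI gene 17196) encodes myelin basic protein, which draws the cytoplasmic faces of the membrane together in compact myelin. Mobp (NCBI gene 17433, chromosome 9, 120149742 to 120181488 in the RefSeq annotation of GRCm38.p6, the assembly that also underlies mm10, the build named in the submitters' processing notes) encodes a small basic protein of the same compartment. Mal (gene 17153, chromosome 2, 127633226 to 127656695) encodes a proteolipid of lipid rafts. Cldn11 (gene 18417, chromosome 3, 31149920 to 31164326) encodes the claudin of the tight junctions between myelin layers. Mog (gene 17441, chromosome 17, 37010740 to 37023398) encodes an immunoglobulin-type glycoprotein on the outer surface of the sheath and a known autoantigen in demyelinating disease. Mag (gene 17136, chromosome 7, 30899175 to 30914922) encodes a sialic acid-binding glycoprotein of the inner membrane that faces the axon. Cnp (gene 12799, chromosome 11, 100574909 to 100591875) encodes the cyclic nucleotide phosphodiesterase of the uncompacted, cytoplasm-filled parts of myelin. Opalin (gene 226115, chromosome 19, 41061959 to 41077113) encodes a sialylated transmembrane protein, and Ermn (gene 77767, chromosome 2, 58045115 to 58052864) the actin-binding protein ermin; both are made late in oligodendrocyte maturation.

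The DNA just upstream of these genes was searched for the letters CTGGCAC and CTGGTAC, the core that the factor MYRF is known to bind, on both strands. Of the 9 genes, 8 had an entry in the RefSeq promoter table of GRCm38.p6, with 10 annotated starts. The letters were present in the 250 bases before the start in 4 of these 10 windows, belonging to 3 genes (Mag, Cnp and Mog), and in 5.93% of the 32851 windows of the same length in the table. Mag accounts for 2 of the 4 windows; these overlap and hold the same match, so that there were 3 separate matches. A match describes the letters only. The windows of Mog and Mag, the surface and the axon-facing glycoprotein, are shown 5′ to 3′ on the strand of the gene, with the matching letters in capitals. The Mog window is chr17:37023399-37023648 and the Mag window is chr7:30914923-30915172, and both genes lie on the minus strand. In Mog the match is CTGGTAC read on the opposite strand and in Mag it is CTGGCAC on the strand of the gene.
Mog: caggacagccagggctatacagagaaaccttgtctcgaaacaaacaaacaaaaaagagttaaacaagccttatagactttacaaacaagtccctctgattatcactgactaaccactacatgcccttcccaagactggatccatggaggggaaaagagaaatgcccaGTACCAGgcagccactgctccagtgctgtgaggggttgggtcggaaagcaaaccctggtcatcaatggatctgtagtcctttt
Mag: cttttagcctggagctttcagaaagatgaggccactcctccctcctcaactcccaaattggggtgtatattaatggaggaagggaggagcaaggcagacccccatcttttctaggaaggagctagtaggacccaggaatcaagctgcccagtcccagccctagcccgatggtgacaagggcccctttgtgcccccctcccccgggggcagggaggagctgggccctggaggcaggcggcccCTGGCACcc

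RNA-seq libraries held 5423919 to 10246479 estimated counts and footprint libraries 16239479 to 24973462. The targeted genes followed their labels: Fmr1 footprints were 95.7 and 97.3 CPM in WT (CPM is a count scaled by the TMM-adjusted library size), 8.69 and 5.87 in Fmr1 knockout and 5.33 and 5.52 in double knockout libraries, and Cpeb1 footprints were 35.5 and 33.4 CPM in WT, 7.3 and 7.43 in Cpeb1 knockout and 7.73 and 7.69 in double knockout libraries. Markers of Schwann cells, the myelinating cells of peripheral nerve, were low but not absent. They summed to 6.23 to 18.4 TPM (a level scaled for both feature length and library size) in RNA-seq and 10.95 to 33.1 TPM in footprint libraries. Pmp2 among them was listed at 0 in all 8 RNA-seq libraries. Choroid plexus markers varied between libraries of one genotype. Their summed level was 194 and 796 TPM in the 2 WT RNA-seq libraries and 48.9 and 350 TPM in the 2 Fmr1 knockout footprint libraries. Their part in the results was not tested.

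In WT cortex all 9 genes were well expressed. On the per-length TPM scale the order of RNA levels was Cnp (553 and 577 TPM in the 2 libraries), Mal (289 and 395), Mbp (262 and 305), Cldn11 (233 and 276), Mobp (159 and 334), Mag (132 and 136), Mog (85.3 and 150.4), Ermn (52.6 and 60) and Opalin (36.8 and 51.7). Cnp stood above the other 8 in both libraries. Mal, Mbp, Cldn11 and Mobp overlapped with their neighbours in the order, and Mag overlapped with Mog, while both Ermn values lay just above those of Opalin. Footprint levels gave another order: Mbp (930 and 1022 TPM) and Cnp (962 and 987) were level at the top, followed by Cldn11 (386 and 407), Mal (279 and 300), Mobp (140 and 163), Mag (142 and 157), Ermn (110 and 117), Mog (92.3 and 101.8) and Opalin (72.8 and 79.6). Here only Mbp with Cnp and Mobp with Mag overlapped. Among all genes tested, Cnp ranked 214 of 13287 by RNA level, and Mbp ranked 139 and Cnp 140 of 13774 by footprint level.

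The ratio of footprint TPM to RNA TPM, called translational efficiency here, separated the genes. Mbp had 3.45 ± 0.143 (SD, n = 2) in WT, a value at the 99.6th percentile of all genes, against a median gene of 0.641 and 0.647 in the 2 WT library pairs. Ermn followed at 2.02 ± 0.0923, then Opalin at 1.79 ± 0.534, Cnp at 1.72 ± 0.0211 and Cldn11 at 1.57 ± 0.13. Mag had 1.11 ± 0.104, Mog 0.879 ± 0.287, Mal 0.862 ± 0.144 and Mobp 0.685 ± 0.277, the last at the 51.9th percentile. Mbp was the highest of the 9 genes in all 8 library pairs, where its efficiency ran from 2.52 to 3.9. The 2 basic proteins of compact myelin stood at opposite ends of the order of WT means, Mbp at the top and Mobp at the bottom. The place of Mobp was less firm, since its 2 WT values were 0.881 and 0.489. Over all 8 library pairs the median was 0.752 for Mal, 0.791 for Mobp and 0.801 for Mog. Mbp has 8 annotated transcripts, Mobp 3, and Cnp and Mal 2 each, so their per-length values also depend on how the authors' estimates split reads between transcripts of different length; that part was not tested.

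**Figure D1:**
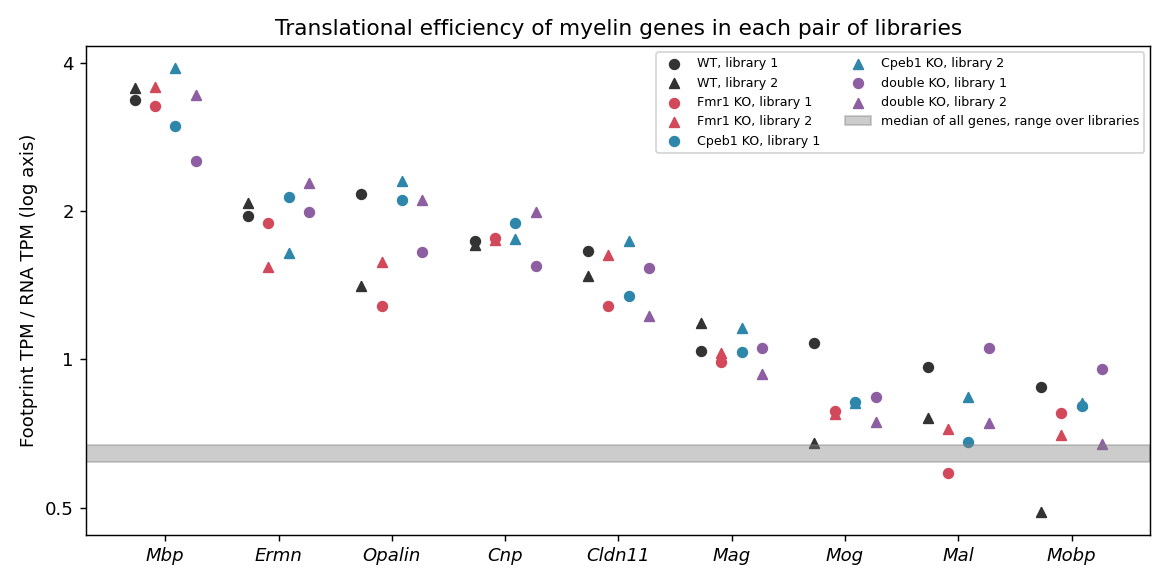
Translational efficiency (footprint TPM divided by RNA TPM, log axis) of the 9 myelin genes in each of the 8 library pairs, coloured by genotype, with circles for library 1 and triangles for library 2; the grey band is the range of the all-gene median. Mbp lies between 2.52 and 3.9, above the other genes in every pair, and Mobp, Mal and Mog lie near 1 or lower.

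The first comparison asked whether loss of FMRP alters myelin gene expression. Among the 9 genes, 8 had lower footprints in the Fmr1 knockout than in WT, but none passed the test at an adjusted p under 0.05 (edgeR quasi-likelihood test, Benjamini-Hochberg adjustment over 13774 genes), where 0.0581% of all genes did. At an unadjusted p under 0.05 there were 6 of 9, against 5.09% of all genes, and all 6 were lower. The 9 genes were chosen with earlier results of these data known, and most of their pairs varied together in footprints. Such shares, here and below, therefore describe the 9 genes and do not test them as a set. The median log2 change of the 9 genes was -0.24, and that of all genes was 0.0039. In 6 genes (Cldn11, Cnp, Mag, Mal, Mog and Opalin) both knockout libraries lay below both WT libraries, which was so for 15.1% of all genes. The summed footprint level of the 9 genes was 3220 and 3228 TPM in WT libraries and 2899 and 2857 TPM in Fmr1 knockout libraries, with no overlap.

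Mog showed the largest difference. Its footprints were 58.5 and 64.2 CPM in WT, 39 and 46 in Fmr1 knockout, 57.4 and 52.2 in Cpeb1 knockout and 47 and 49.6 in double knockout libraries. WT libraries were the highest, and both Fmr1 knockout libraries were lower than the other 6. The log2 change in the Fmr1 knockout was -0.53 ± 0.10 (SE), with an adjusted p of 0.153 in edgeR. This call depends on the tool: DESeq2 called Mog with an adjusted p of 0.0234 and 15 genes in all, and edgeR without the low-count filter gave 0.0427 and 16 genes in all. In the authors' deposited table of this comparison Mog had a log2 change of -0.47 and an adjusted p of 0.00214, and 23 of 7523 genes with an adjusted p were under 0.05. Without the Fmr1 knockout library 1, the edgeR change of Mog was -0.43 with an adjusted p of 0.903.

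Mal footprints, those of the raft proteolipid, were 100.8 and 107.9 CPM in WT, 73.6 and 85.8 in Fmr1 knockout, 108.6 and 93.8 in Cpeb1 knockout and 94.3 and 94 in double knockout libraries. The Fmr1 knockout libraries were the 2 lowest of the 8, and the log2 change was -0.39 ± 0.10 (SE, adjusted p = 0.515 in edgeR). In the authors' deposited table Mal was also under the threshold in this comparison, at -0.34 with an adjusted p of 0.0385. Opalin footprints were 26.4 and 24.1 CPM in WT, 16.8 and 21 in Fmr1 knockout, 22.9 and 23 in Cpeb1 knockout and 21.2 and 26.2 in double knockout libraries. For this late membrane protein the Fmr1 knockout libraries again lay at the bottom, with a log2 change of -0.43 ± 0.13 (SE, adjusted p = 0.746 in edgeR).

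Cldn11 footprints were 200.1 and 209.9 CPM in WT, 151.6 and 174.2 in Fmr1 knockout, 224.7 and 192.5 in Cpeb1 knockout and 185.1 and 160.4 in double knockout libraries. The claudin was lower in both genotypes without Fmr1 than in WT, with changes of -0.33 ± 0.099 (SE) with Fmr1 deleted and -0.25 ± 0.099 with both genes deleted, neither of which passed the edgeR test (adjusted p = 0.773 and 0.179). Mag footprints were 227.6 and 250.3 CPM in WT, 185.2 and 218.9 in Fmr1 knockout, 255.8 and 239 in Cpeb1 knockout and 220 and 218.6 in double knockout libraries. Its log2 change in the Fmr1 knockout was -0.24 ± 0.084 (SE, adjusted p = 0.888 in edgeR). Cnp footprints were 1094 and 1116 CPM in WT, 1026 and 952 in Fmr1 knockout, 1254 and 1099.9 in Cpeb1 knockout and 1208 and 1071 in double knockout libraries. The enzyme's difference in the Fmr1 knockout was small but without overlap, at -0.16 ± 0.069 (SE, adjusted p = 0.949 in edgeR).

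Mbp, Mobp and Ermn did not separate the Fmr1 knockout from WT. Mbp footprints were 381.6 and 348.8 CPM in WT, 401.9 and 336.1 in Fmr1 knockout, 412.8 and 362.8 in Cpeb1 knockout and 401.4 and 377.2 in double knockout libraries. The log2 change of Mbp in the Fmr1 knockout was 0.01 ± 0.068 (SE), and its sign turned when single libraries were left out. Mobp footprints were 31.6 and 36.5 CPM in WT, 30.7 and 35.5 in Fmr1 knockout, 30.4 and 35 in Cpeb1 knockout and 46.2 and 36.7 in double knockout libraries. The first double knockout library held the highest Mobp value, and the other 7 libraries lay between 30.4 and 36.7 CPM. Ermn footprints were 85.8 and 79.8 CPM in WT, 86.8 and 63.6 in Fmr1 knockout, 101.6 and 82.6 in Cpeb1 knockout and 86.2 and 77.9 in double knockout libraries, so that all genotypes overlapped with WT.

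**Figure D2:**
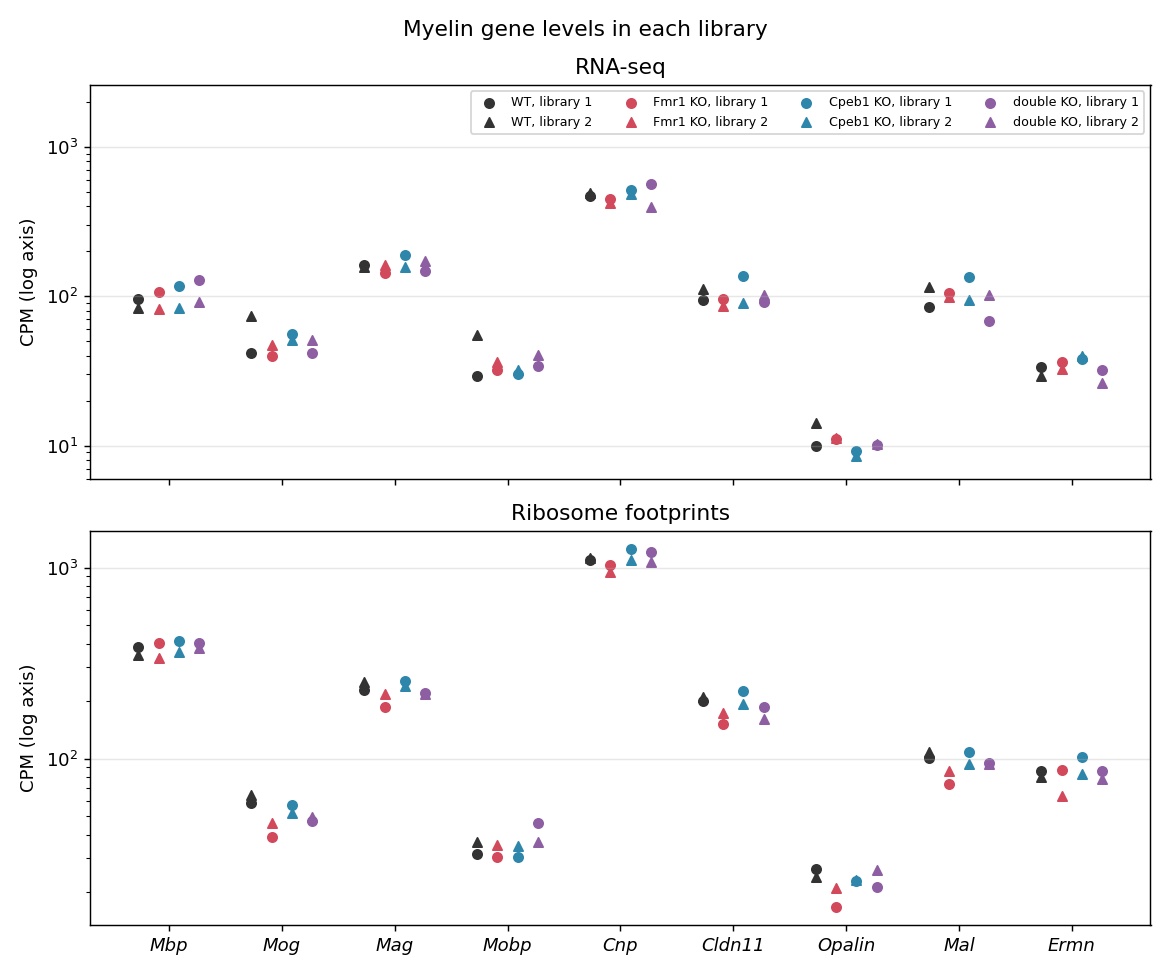
Level of each myelin gene in CPM (log axis) in the 8 RNA-seq libraries (top) and the 8 footprint libraries (bottom), coloured by genotype, with circles for library 1 and triangles for library 2. In footprints the Fmr1 knockout libraries of Mog, at 39 and 46 CPM, lie under the other 6, and in RNA-seq the WT library 2 holds the highest Mog, Mobp and Opalin values.

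Footprints of the Cpeb1 knockout stayed near WT for these genes. Of the 9 genes, 5 were higher and 4 lower, with a median log2 change of 0.023. None passed the edgeR test, where 0.0799% of all genes did, and none had an unadjusted p under 0.05. Mog and Opalin lay below WT in both libraries, which 14.4% of all genes did. The Mog change was -0.16 ± 0.097 (SE) and the Opalin change -0.14 ± 0.12. The sign of the median turned when WT library 1 or Cpeb1 knockout library 1 (-0.059) was left out, and that of Opalin without WT library 1 (0.036).

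In the double knockout 6 of 9 genes had lower footprints than in WT, with a median log2 change of -0.11. None passed the edgeR test, while 2.65% of all genes did; 3 had an unadjusted p under 0.05, against 21% of all genes. Mog was again the lowest, at -0.35 ± 0.099 (SE, adjusted p = 0.0787 in edgeR), and in the authors' deposited table for this comparison it had a log2 change of -0.31 with an adjusted p of 0.0301, among 743 genes under 0.05. Mobp lay at the other end, at 0.30 ± 0.13 (SE, adjusted p = 0.205 in edgeR). Without double knockout library 1, Mobp stood at 0.019 and the median of the 9 genes turned to 0.01. Cldn11, Mag, Mal and Mog were without overlap lower, a state shared by 26.7% of all genes, so that their number was near the background. All 3 knockout comparisons use the same WT libraries.

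Set directly against the Fmr1 knockout, the double knockout had higher footprints of all 9 genes, with log2 changes from 0.08 to 0.34 and a median of 0.19. None passed the edgeR test, where 0.334% of all genes did. An unadjusted p under 0.05 was reached by 4 genes, against 15.9% of all genes. Cnp, Mal, Mobp, Mog and Opalin were higher without overlap, as were 21.3% of all genes. The largest differences were those of Mobp (0.34 ± 0.13, SE) and Opalin (0.32 ± 0.13), and without double knockout library 1 that of Mobp was 0.061. Against the Cpeb1 knockout the double knockout had 6 of 9 genes lower with a median of -0.10, from Cldn11 at -0.27 ± 0.099 (SE, adjusted p = 0.118 in edgeR) to Mobp at 0.35 ± 0.13 (adjusted p = 0.114), which was 0.074 without double knockout library 1. Over left-out libraries this median ran from -0.19 to 0.0065, the latter without Cpeb1 knockout library 1. None of the 9 passed there either, although 5.6% of all genes did.

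**Figure D3:**
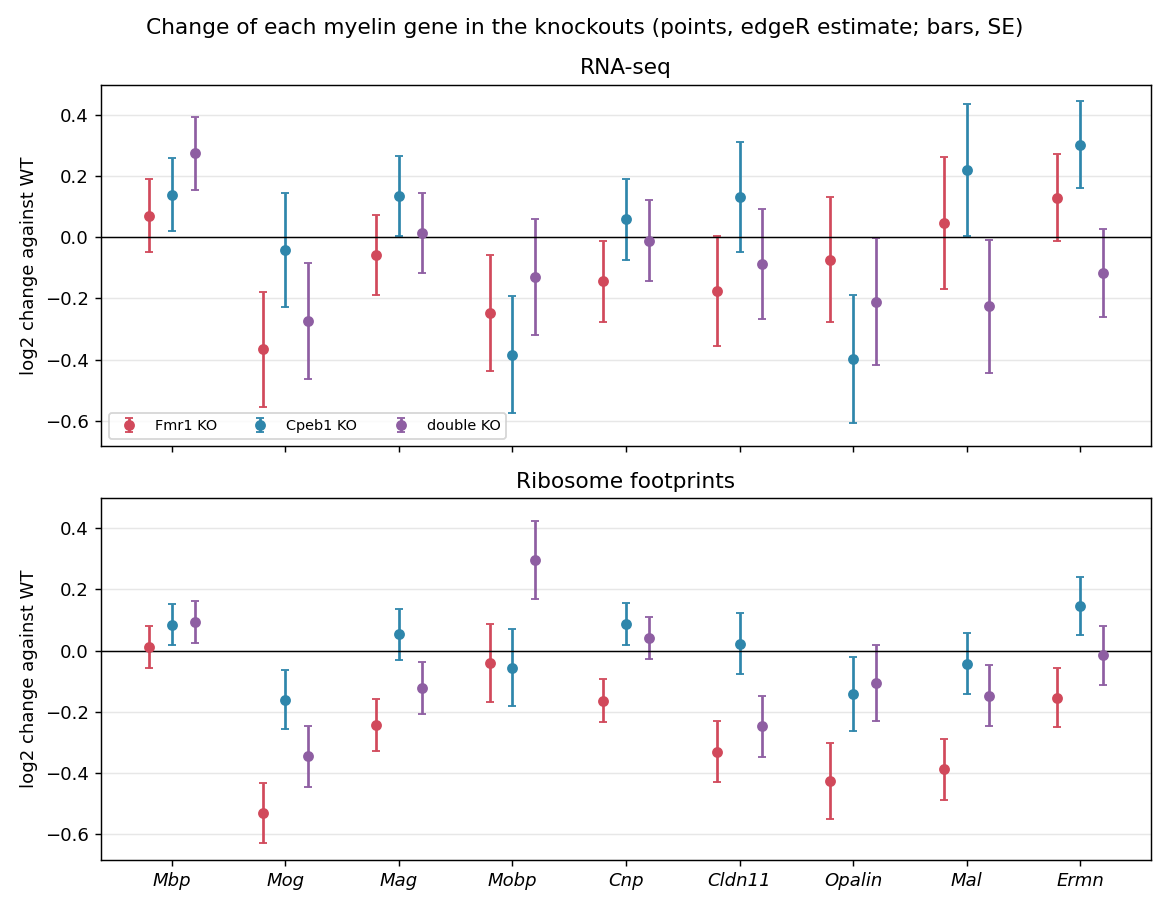
Log2 change of each myelin gene against WT in the Fmr1 knockout, the Cpeb1 knockout and the double knockout, in RNA-seq (top) and footprints (bottom); points are edgeR estimates and bars their SE. In Fmr1 knockout footprints 8 of 9 points lie under 0, with Mog lowest at -0.53, while in RNA-seq the bars are wider and no gene passed the test.

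RNA levels of the 9 genes gave no call in any comparison. The RNA-seq test also missed a known deletion. Cpeb1 RNA was 43.9 and 33.6 CPM in WT and 16 and 19.7 in Cpeb1 knockout libraries, yet it was not called in that comparison. A lack of calls in RNA-seq therefore cannot show that the 9 genes were unchanged. Against WT, the Fmr1 knockout had 6 of 9 lower (median log2 change -0.07), the Cpeb1 knockout 6 of 9 higher (0.13) and the double knockout 7 of 9 lower (-0.12); edgeR called 0.00753%, 0% and 0.00753% of all 13287 genes in these comparisons. These directions rested on single libraries: over left-out libraries the medians ran from -0.29 to 0.098, from -0.23 to 0.26 and from -0.30 to 0.083. Without WT library 2 the Fmr1 knockout and double knockout medians turned positive, and the Cpeb1 knockout median turned negative without WT library 1 (-0.082) or Cpeb1 knockout library 1 (-0.23). The double knockout against the Fmr1 knockout called 0% of all genes and against the Cpeb1 knockout 0.00753%, with none of the 9 among them. At an unadjusted p under 0.05 there was 1 of the 9 in the double knockout against WT, Mbp at 0.27 ± 0.12 (SE, adjusted p = 0.966 in edgeR), where 4.23% of all genes were under it. In the double knockout against the Cpeb1 knockout there was also 1, Ermn at -0.42 ± 0.14 (SE, unadjusted p = 0.0134, adjusted p = 0.155 in edgeR), where 19.2% of all genes were under 0.05. Leaving out the Cpeb1 knockout library 2 made Mal the only called one of the 9 in the double knockout against the Cpeb1 knockout, at -0.84 with an adjusted p of 0.031 in edgeR; 371 genes were called in that fit, against 1 with all libraries. The SE of the log2 changes was wider in RNA-seq, from 0.12 to 0.22 against WT, than in footprints, from 0.068 to 0.13.

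The spread in RNA-seq was uneven among the genes. Mog RNA was 41.6 and 73.4 CPM in WT, 39.7 and 47 in Fmr1 knockout, 55.9 and 51.2 in Cpeb1 knockout and 41.7 and 51.1 in double knockout libraries. Mobp RNA was 29.3 and 55.4 CPM in WT, 32.1 and 36.5 in Fmr1 knockout, 30.1 and 32 in Cpeb1 knockout and 34.1 and 40.6 in double knockout libraries. For both genes 1 library, WT library 2, held the highest of the 8 values, and the 2 WT libraries spanned the levels of most others. Opalin RNA was 10 and 14.1 CPM in WT, 11.1 and 11.2 in Fmr1 knockout, 9.25 and 8.53 in Cpeb1 knockout and 10.2 and 10.2 in double knockout libraries. WT library 2 was also the one with 796 TPM of summed choroid plexus markers, against 37.9 to 340 TPM in the other 7 RNA-seq libraries, and the part of this difference in the myelin gene levels was not tested. Mbp RNA was 95.7 and 83.7 CPM in WT, 106.6 and 82.6 in Fmr1 knockout, 116.4 and 82.9 in Cpeb1 knockout and 127.5 and 91.3 in double knockout libraries. Library 1 held more Mbp than library 2 in all 4 genotypes, by 0.19 to 0.49 on the log2 scale, and the same held for Mbp footprints, by 0.089 to 0.26. Mobp RNA went the other way, with library 1 lower in all 4 genotypes.

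The study also pooled WT with the double knockout and set both single knockouts against them, 4 libraries against 4. In RNA-seq this comparison called 7.31% of all genes and none of the 9. Ermn came nearest, at 33.5 and 29.4 CPM in WT, 31.9 and 26.1 in double knockout, 36.4 and 32.4 in Fmr1 knockout and 37.8 and 39.9 in Cpeb1 knockout libraries. The single knockout libraries were the higher ones with overlap between the pools, and the log2 change was 0.27 ± 0.1 (SE, adjusted p = 0.104 in edgeR). The median of the 9 genes was -0.03, and it turned positive without WT library 2 (0.022), Fmr1 knockout library 1 (0.016) or Fmr1 knockout library 2 (0.014). In footprints the pooled comparison called 0% of all genes, 7 of the 9 were lower in the single knockouts, the median was -0.05, and none had an unadjusted p under 0.05.

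Translational efficiency was tested as a change of footprints beyond that of RNA, in a joint model of all 16 libraries. None of the 9 genes passed in the Fmr1 knockout (0.0154% of all 13027 genes called), the Cpeb1 knockout (0%) or the double knockout (0.00768%), and none had an unadjusted p under 0.05. Median log2 changes of the 9 genes were -0.14, -0.06 and 0.03, and all 3 turned sign with left-out libraries, running from -0.18 to 0.052, from -0.13 to 0.069 and from -0.13 to 0.085. The first turned without WT library 1, the second without WT library 1 or Cpeb1 knockout library 1, and the third without WT library 2 or either double knockout library. Mal in the Fmr1 knockout had the largest value, -0.41 ± 0.26 (SE, adjusted p = 0.752 in edgeR), and -0.16 without Fmr1 knockout library 1. The authors' deposited Xtail table gives Mal a change of -0.34 with an adjusted p of 0.0761 in that comparison. Xtail had more genes under 0.05 than edgeR: 431 of 14563 in the Fmr1 knockout, 359 of 14546 in the Cpeb1 knockout and 22 of 14521 in the double knockout. Over all 15 comparisons edgeR called none of 135 gene-by-comparison values, 18 had an unadjusted p under 0.05, and the lowest adjusted p was 0.0787.

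The 9 genes varied together more in footprints than in RNA-seq, as a description over 8 libraries that share genotypes. Of the 36 pairs of genes, 27 had a positive correlation of log2 CPM across the footprint libraries (median r 0.39) and 22 across the RNA-seq libraries (median r 0.084). Mal followed the mean of the other 8 genes most closely in footprints (r = 0.95), and Mbp (0.088) and Mobp (-0.037) did not follow it. Of 10548 genes with at least 50 counts on average in each assay, those most like the mean of the 9 across all 16 libraries, each assay centred on its own mean, included Cers2 (r = 0.78), Tspan2 (0.77), Agpat4 (0.74), Abhd1 (0.71), Gsn (0.70), Pllp (0.69), Reep3 (0.68), Fuca1 (0.68) and Usp38 (0.68). Cers2, Tspan2, Gsn and Pllp were also on the lists of other oligodendrocyte genes.

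Other genes of the lineage were read from lists of myelin and membrane proteins (17 genes), myelin lipid enzymes (8), other mature oligodendrocyte genes (26), lineage transcription factors (10 in the tables) and precursor genes (13). In Fmr1 knockout footprints none of these 74 genes passed the edgeR test. Lower values were found in 16 of 17 membrane genes (median log2 change -0.35), all 8 lipid enzymes (-0.30), 22 of 26 mature genes (-0.13), 8 of 10 lineage factors (-0.11) and 7 of 13 precursor genes (-0.03), beside 48.6% of all genes. Ugt8a, the enzyme that makes galactosylceramide, had 142 and 158.7 CPM in WT and 127.5 and 117.7 CPM with Fmr1 deleted, with no overlap, at -0.30 ± 0.099 (SE, adjusted p = 0.861 in edgeR). Without WT library 1 in the fit, 4 of the 74 genes were called. Marker lists of other cells moved beside these values: neuron markers were higher in 7 of 9 (median 0.037) and summed to 11618 to 12366 TPM in the Fmr1 knockout and 11525 to 11965 TPM in WT, microglia markers were higher in 7 of 8 (median 0.17; 67 to 86.1 and 66.4 to 77.5 TPM), and astrocyte markers were lower in 6 of 8 (median -0.038; 1566 to 1693 and 1631 to 1766 TPM). Their part in the result was not tested.

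In the double knockout the footprints of 9 of the 74 genes fell against WT and none rose, by the edgeR test, which called 2.65% of all genes. Omg, oligodendrocyte myelin glycoprotein, which neurons also make, had 106.9 and 112.7 CPM against 149.6 and 154.3 in WT (log2 change -0.47 ± 0.078, SE, adjusted p = 0.0132). Ugt8a had 109.1 and 91.6 CPM against 142 and 158.7 (-0.59 ± 0.1, adjusted p = 0.0154). Also called were the tetraspanin Tspan2 (-0.44), the fatty acid elongase Elovl7 (-0.74), Aspa, which releases acetate for lipid synthesis (-0.37), apolipoprotein Apod (-0.44), transferrin Trf (-0.46) and the precursor gene Ptprz1 (-0.44), which astrocytes also express. Both double knockout values of each gene named here lay below both WT libraries, which was so for 26.7% of all genes. These genes were named because the same libraries gave a call, so the lack of overlap adds no separate evidence. Apod, Tspan2 and Trf had nearly the same mean in the Fmr1 knockout as in the double knockout. These means were 65.9 and 66 CPM for Apod (89.3 in WT), 50 and 50.5 for Tspan2 (68.5) and 127.4 and 125.3 for Trf (171.4). Omg stood at 153.2 CPM in the Fmr1 knockout, 109.8 in the double knockout and 151.9 in WT. Ugt8a, Elovl7, Aspa and Ptprz1 had Fmr1 knockout means between those of WT and the double knockout. The count of 9 called genes was 0 without double knockout library 2, 1 (Elovl7) without double knockout library 1, 3 without either Cpeb1 knockout library, 4 without WT library 2 and 2 without a replicate block.

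The falls in the double knockout came with those of other glia. Microglia markers were lower in 7 of 8 (median -0.49), and P2ry12 (-0.88) fell; their summed level was 42.7 and 60 TPM against 66.4 and 77.5 in WT. Astrocyte markers were lower in 7 of 8 (median -0.13), with Gja1 (-0.33) and Slc1a3 (-0.32) called, and summed to 1501 and 1551 TPM against 1631 and 1766. Neuron markers were higher in 7 of 9 (median 0.087), with Nefl (0.37) called, and summed to 12028 and 12737 TPM against 11965 and 11525. The part of these shifts in the oligodendrocyte values was not tested. Against the Fmr1 knockout, Omg alone of the 74 genes was called in double knockout footprints, at -0.48 ± 0.078 (SE, adjusted p = 0.0278 in edgeR). Against the Cpeb1 knockout 13 of the 74 genes were called, beside 5.6% of all genes. Of these 12 were lower, among them Elovl7 (-0.76), Ugt8a (-0.71), Omg (-0.59) and Aspa (-0.52), and Dbndd2 (0.38) was higher. That count was 0 without Cpeb1 knockout library 1 or double knockout library 2, 2 without Cpeb1 knockout library 2, 3 without double knockout library 1 and 22 or 23 without either WT library, and the Omg call against the Fmr1 knockout was lost without any 1 of the 6 libraries of the knockouts. Against WT, the calls of Gja1 and Slc1a3 were lost on leaving out any of 7 of the 8 libraries. Those of P2ry12 and Nefl were lost with any of 5. Both double knockout libraries were among these in each case.

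**Figure D4:**
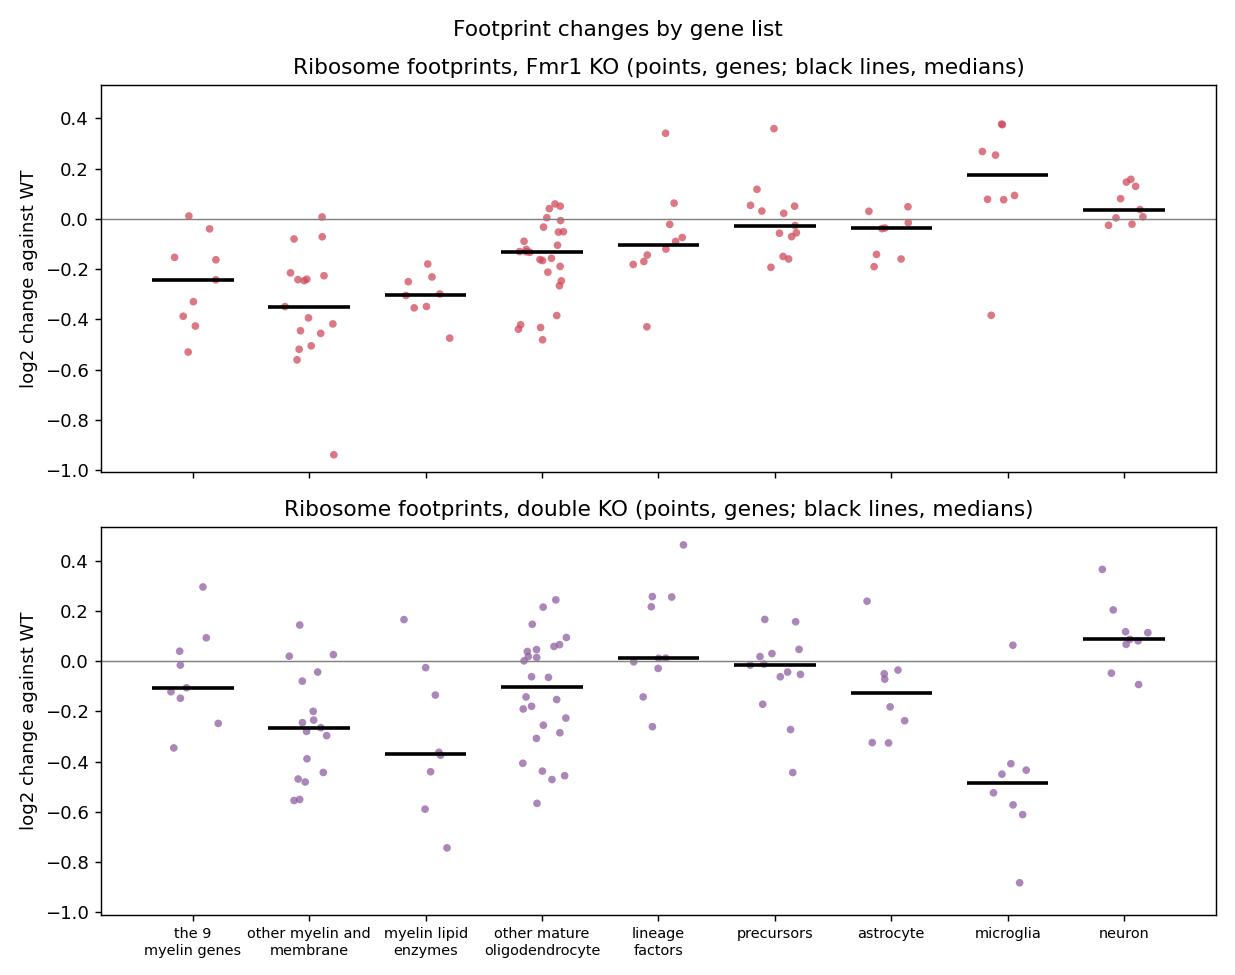
Log2 change of footprints against WT in the Fmr1 knockout (top) and the double knockout (bottom) for the 9 myelin genes, 5 lists of other oligodendrocyte lineage genes and markers of 3 other cell types; each point is a gene and black lines are medians. The myelin gene medians are -0.24 and -0.11, the lipid enzyme medians -0.30 and -0.37, and the microglia medians 0.17 and -0.49.

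Of the 10 lineage transcription factors, 3 fell in the single knockouts in the pooled RNA-seq comparison by the edgeR test, where 7.31% of all genes were called. All 10 were lower (median log2 change -0.60), as were 45.3% of all genes, and 8 had an unadjusted p under 0.05, against 25.7% of all genes. The factors and the 9 myelin genes were not compared by a test. Sox10 RNA was 18.1 and 23.8 CPM in WT, 25.3 and 18.8 in double knockout, 8.8 and 13.9 in Fmr1 knockout and 11.3 and 16.3 in Cpeb1 knockout libraries. The 4 single knockout libraries lay below the other 4, with a log2 change of -0.81 ± 0.16 (SE, adjusted p = 0.0123 in edgeR). Myrf (-0.82 ± 0.21, adjusted p = 0.0304) and Olig1 (-0.52 ± 0.12, adjusted p = 0.019) fell as well. Of the other lineage lists, Cd9, a tetraspanin of myelin and of other cells, was the single gene called there, at 0.53 ± 0.13 (SE), and it rose. Sox10 footprints showed no such split, at 55.2 and 46 CPM in WT, 54.3 and 47.6 in double knockout, 44.6 and 50.4 in Fmr1 knockout and 46.5 and 53 in Cpeb1 knockout libraries. In footprints 7 of 10 factors were lower in the pooled comparison (median -0.11) and none was called. In translational efficiency all 10 were higher in the Fmr1 knockout (median 0.43) and in the Cpeb1 knockout (0.48), with none called. Efficiency is taken relative to the same RNA values, so these higher values restate the lower RNA and are not a separate observation. Without Fmr1 knockout library 1 none of the 3 factors passed in RNA-seq, and Sox10 had a log2 change of -0.67 with an adjusted p of 0.0592.

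Further lists cover genes with known roles in building myelin or at its borders. Their values come from bulk cortex and do not show in which cells a change arose. Of all genes, 7.31% were called in the pooled RNA-seq comparison and 2.65% in double knockout footprints against WT. Of the cholesterol synthesis enzymes, Cyp51 (0.34), Ebp (0.52) and Msmo1 (0.34) rose in the pooled RNA-seq comparison, with 15 of 19 higher (median 0.19), and Sc5d fell in double knockout footprints (-0.52). Of 8 genes for the transport and control of Mbp mRNA, Hnrnph1 rose in the pooled RNA-seq comparison (0.39) and Ckap5, a partner of the transport granule, fell in double knockout footprints (-0.26). In Fmr1 knockout footprints none of these 8 was called and the median was -0.04. Of 14 genes of the axon-glia junction and the nodes that myelin borders, Lingo1 (-0.36), Nfasc (-0.36) and Sptbn4 (-0.37) fell in the pooled RNA-seq comparison and 10 of 14 were lower, whereas Sptbn4 rose in double knockout footprints against WT (0.39). Of these calls in double knockout footprints against WT, that of Ckap5 (adjusted p = 0.0495 in edgeR) was lost on leaving out any of 7 of the 8 libraries, and those of Sc5d and Sptbn4 on leaving out any of 5. The astrocyte gene Gja1 (0.38) also rose in the pooled RNA-seq comparison, and the striatal gene Ppp1r1b (-0.60) and the neuronal gene Camk2a (-0.45) fell in it. Summed striatal markers there were 448 to 936 TPM in the single knockouts and 872 to 1177 TPM in the other libraries. Summed astrocyte markers did not follow Gja1, at 1451 to 1865 TPM in the single knockouts and 1455 to 1745 TPM in the other libraries. Summed neuron markers were 6987 to 7654 TPM and 7545 to 8711 TPM, with overlap. The part of these shifts in the lineage factor values was not tested. Among the genes named from the pooled RNA-seq comparison, Hnrnph1 was called with each library left out in turn. The calls of Msmo1 and Sptbn4 were lost on leaving out any of 6 of the 8 libraries. Those of Cyp51, Gja1, Lingo1 and Myrf were lost with any of 5, and those of Ebp, Nfasc, Cd9 and Ppp1r1b with any of 4. Olig1 lost its call with any of 3, Camk2a with either of 2 and Sox10 with 1. Hnrnph1 itself was not called without the replicate block (adjusted p = 0.175 in edgeR).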

How the data were processed

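Per the submitters' processing notes, cutadapt, Bowtie2, TopHat2 and RSEM were used with build mm10; versions are not given in the sources used here. The authors deposited for each library expected counts (reads assigned to genes by RSEM, per the file headers), TPM and feature lengths. Of 15716 genes with a single transcript, 99.6% had a deposited length that is a multiple of 3, so the counts appear to cover coding sequence, and the footprint feature was 57 nt shorter. Deposited DESeq2 and Xtail tables hold the authors' log2 changes and adjusted p-values, and are quoted only where named.

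Expected counts were rounded and fitted with edgeR 4.0.16 in R 4.3.3: TMM scaling, filterByExpr with minimum count 10, quasi-likelihood test, terms for genotype and library number, and Benjamini-Hochberg adjusted p under 0.05 as called. Each fit held all 8 libraries of its assay, and that of translational efficiency all 16. CPM used TMM factors, and summed levels and ratios used the deposited TPM. Log2 CPM for correlations used a prior count of 2. Alternatives were no block, RLE scaling, no filter, DESeq2 1.42.0, the interaction form of the pooled comparison, and each library left out. The procedure was tested on simulated data.

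Named genes are the 9 members, per list up to 4 called genes with the largest change in a comparison (or 2 of the most abundant where none was called), and the 10 genes most like the members. The members and lists were chosen with earlier results of these data known. Genes named outside this rule (Ugt8a and Sox10 in further comparisons) were chosen after their values were seen. Some genes that count in the list totals are not reported here by name.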

Additional observations from a re-analysis of the deposited data

Results flagged for a closer look

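In the pool of 2 WT and 2 double knockout RNA-seq libraries, Opalin stood at 14.1 CPM in WT library 2 and at 10 to 10.2 CPM in the other 3, so that nearly the whole range of the 4 values was the gap to that library. The gap, as a share of the range, was past Dixon's threshold for 4 values, which chance passes in about 1 in 20 groups; how rare a gap of this size is was not computed, and 36 groups (9 genes, 2 assays, 2 pools) were examined. The same library held the highest Mog and Mobp RNA levels.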

How the results depend on the processing

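The count of the 9 genes called was 0 in each comparison and alternative except 3: Mog in Fmr1 knockout footprints, 1 called without the low-count filter and 1 with DESeq2, and Mal RNA in the double knockout against the Cpeb1 knockout, 0 to 1 over left-out libraries. The median of the 9 in Fmr1 knockout footprints stayed below 0, from -0.36 to -0.18 over left-out libraries. The sign of the median turned over left-out libraries in RNA-seq in the Fmr1 knockout (-0.29 to 0.098), the Cpeb1 knockout (-0.23 to 0.26), the double knockout (-0.30 to 0.083), the double against the Fmr1 knockout (-0.038 to 0.1), the double against the Cpeb1 knockout (-0.28 to 0.08) and the pooled comparison (-0.075 to 0.022). It also turned in footprints of the Cpeb1 knockout (-0.059 to 0.11), the double knockout (-0.11 to 0.01) and the double against the Cpeb1 knockout (-0.19 to 0.0065), and in translational efficiency in all 3 comparisons (-0.18 to 0.052, -0.13 to 0.069 and -0.13 to 0.085). All 9 genes were followed singly in Fmr1 and double knockout footprints against WT, and elsewhere the members named with a value; among these the sign turned for Mbp (-0.051 to 0.072) and Mobp (-0.14 to 0.055) in Fmr1 knockout footprints, Opalin (-0.31 to 0.036) in Cpeb1 knockout footprints, and Cnp (-0.051 to 0.13), Ermn (-0.11 to 0.083) and Opalin (-0.27 to 0.072) in double knockout footprints; a genotype left with 1 library is assumed to vary like the others. Of the 74 other lineage genes, 4 were called in the pooled RNA-seq comparison, 1 without replicate block, 8 without filter, 1 in the interaction form and 0 to 7 over left-out libraries. In Fmr1 knockout footprints it was 0, 2 with DESeq2 and 0 to 4 over left-out libraries; in the double knockout 9 against WT, 2 without replicate block and 0 to 13, and 13 against the Cpeb1 knockout, 5 without replicate block and 0 to 23. The causes were not tested. Deviations of same-numbered libraries correlated at -0.045 to 0.29 in RNA-seq and -0.075 to 0.33 in footprints, so the numbers do not pair the samples throughout. Over all genes, calls without replicate block were 380 for 971 (pooled RNA-seq; 274 in the interaction form), 73 for 365 (double knockout footprints against WT), 207 for 772 (against Cpeb1 knockout), 4 for 46 (against Fmr1 knockout) and 5 for 11 (Cpeb1 knockout footprints). Without filter and with DESeq2, Fmr1 knockout footprints had 16 and 15 for 8, double against Fmr1 knockout footprints 165 and 202 for 46, and double against Cpeb1 knockout RNA 206 and 212 for 1. RNA-seq libraries were shallower than footprint libraries and had wider SEs, and the part of depth in this difference was not tested.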
